A study of Mus musculus with 2 samples.

Results

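The genes that admit a cell to S phase were followed through the hippocampus of 19-day-old mice in 8 genes, selected by symbol from the 33696 genes in the count files: the D-type cyclin genes Ccnd1, Ccnd2 and Ccnd3, the kinase genes Cdk4 and Cdk6, and the inhibitor genes Cdkn1a, Cdkn1b and Cdkn1c. All 8 were found. Nuclei were profiled by droplet 3′ RNA sequencing in 2 libraries, each pooling 1 hippocampus from each of 3 littermates (2 males and 1 female) at postnatal day 19. The control mice were Cicflox/flox, with both copies of Cic floxed. Cic is the gene of Capicua, a repressor of transcription. The mice of the other library carried the same floxed alleles and Emx1-Cre, which drives recombination in the excitatory neurons and the neural-derived glia of the dorsal telencephalon, so that inhibitory neurons and microglia lie outside its lineage. With 1 library per group nothing could be tested against replicate spread. Every interval given is a 95% interval for counting error alone and covers neither differences between mice nor between library preparations.

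D-type cyclins bind and activate CDK4 and CDK6, and these kinases phosphorylate the retinoblastoma protein and its relatives, which releases E2F factors to transcribe the genes of S phase. The inhibitors of the CIP/KIP family, which the Cdkn1 genes encode, bind cyclin-CDK complexes, hold back CDK2 and can also help D cyclins to assemble with their kinases. Cyclin D2 is known for its part in the expansion of granule cell progenitors of the dentate gyrus, a germinal zone that stays active after birth, and D cyclins and CDK6 are also found in cells that no longer divide.

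The sequences upstream of the kinase genes are shown because Cdk6 was the only one of the 8 genes counted below as lower by 2-fold in a class, and Cdk4, its closest relative, was slightly higher there. They are the 250 bases before the annotated start on the + strand, 5′ to 3′, from RefSeq for GRCm38.p6, while the count files use mm39. Capitals mark CACGTG, the E-box hexamer that reads the same on both strands.
Cdk4, chr10:127063285-127063534: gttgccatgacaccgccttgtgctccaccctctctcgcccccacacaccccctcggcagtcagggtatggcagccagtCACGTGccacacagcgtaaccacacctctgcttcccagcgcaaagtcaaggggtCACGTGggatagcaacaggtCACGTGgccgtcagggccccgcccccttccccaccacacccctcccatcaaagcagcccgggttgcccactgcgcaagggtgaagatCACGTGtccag
Cdk6, chr5:3343643-3343892: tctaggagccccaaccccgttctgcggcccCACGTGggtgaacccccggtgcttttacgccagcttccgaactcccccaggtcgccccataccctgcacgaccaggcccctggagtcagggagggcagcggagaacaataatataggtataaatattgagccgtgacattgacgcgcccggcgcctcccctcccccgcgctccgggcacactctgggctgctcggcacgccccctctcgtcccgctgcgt
Upstream of Cdk4 there were 4 CACGTG matches and upstream of Cdk6 there was 1. Of 32851 annotated mouse starts, 6.02% held CACGTG in the same window and 7 (0.0213%) held 4 or more. Both strands were also searched for TGAATGAA and TGAATGGA, the octamers that Capicua is known to bind, which occurred in 1.08% and 1.01% of all starts. The 7 starts of the 5 genes with an entry in the table, Ccnd3, Cdk4, Cdk6, Cdkn1a and Cdkn1b, held 0 matches of either octamer in this window.

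The control library held 314453640 UMIs (unique molecular identifiers, each a captured transcript) in 25907 barcodes and the other 252995761 in 23207, with 175 barcode sequences in both. After filtering and removal of called doublets, 21865 and 20531 nuclei remained, with medians of 9790 and 8766 UMIs. Clusters were named from marker genes with these 8 genes left out of the clustering, which gave 16 classes with at least 50 nuclei in each library, each named for what it resembles. Cic itself was not lower in the library with Cre: its UMIs per 1000000 UMIs of the class (CPM) were higher there in 14 of 16 classes, with the interval above no change in 5 and below it in 0. The median log2 ratio of all genes was above 0 in 14 of the 16 too, but ran only from -0.10 to 0.11. It was below 0 in fibroblast-like and oligodendrocyte-like nuclei. The 5 Cic ratios with an interval above no change ran from 0.45 in dentate granule-like to 0.86 in CA1-like nuclei. The 2 classes where Cic was not higher were inhibitory-like (log2 ratio -0.06, -0.35 to 0.23) and microglia-like nuclei (-0.05, -0.55 to 0.43). The inhibitory-like interval overlapped none of the 5 above no change. The microglia-like interval overlapped those of dentate granule-like and subicular or cortical excitatory-like nuclei, but not those of CA1-like, CA3-like and oligodendrocyte-like nuclei. Both overlapped those of all the remaining classes. Fibroblast-like nuclei, which do not arise from the Cre lineage either, were at 0.37 (-1.33 to 2.59) from 4 and 10 UMIs. Counts per gene cannot tell transcripts with the floxed exons from those without, so the second library is called the library labelled knockout throughout. In the dentate granule-like class, 2 clusters were filled unequally: cluster 1 held 993 control nuclei and 3216 of the library labelled knockout, and cluster 3 held 3387 and 135. CA1-like nuclei were also filled unequally when clustered more finely: at resolution 2, cluster 9 held 1296 and 30 and cluster 7 held 410 and 1316.

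Differences between the libraries were small for most of these genes, and the 2 that were not lay in dentate granule-like nuclei, where Cdk6 was lower, and in committed oligodendrocyte precursor-like nuclei, where Ccnd3 was higher. The Ccnd3 difference was under 2-fold with called doublets kept, in male nuclei alone and without nuclei carrying microglia markers. Ccnd1 was also higher in dentate granule-like nuclei, at a level under the minimum used for counting. A gene was counted as different in a class when its level was 2-fold or more apart and the library with more of it had 50 UMIs and 10 CPM or above. This is a rule of size and no test. Of 128 pairs of a gene and a class, 42 reached the minimum and 2 differed by 2-fold. Over all genes, 1.6% of the pairs that reached the minimum differed by 2-fold (5.63% by 1.5-fold, and 3.48% by 2-fold with a minimum of 20 UMIs and none on CPM), so 2 of 42 is a small number to set against it. In dentate granule-like nuclei 3.35% of genes differed by 2-fold, 1.08% being lower in the library labelled knockout. In committed oligodendrocyte precursor-like nuclei 1.24% did, 1.04% being higher, and over the 16 classes this share ran from 0.102% to 11.1%. Of the 42 pairs, 37 had a log2 ratio (labelled knockout over control) under 0.5 in size. The counting interval lay above no change in 17, below it in 3 and included it in 22, against 19.5% of all such pairs above and 13.3% below.

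Ccnd1 encodes cyclin D1, the D cyclin that growth factor signalling through MAP kinase is best known to induce. Its level was highest in oligodendrocyte precursor-like nuclei, at 56.6 CPM in the control library (315 UMIs) and 70.5 CPM in the library labelled knockout (379 UMIs), a log2 ratio of 0.32 (0.10 to 0.54). Cycling progenitor-like nuclei came next at 28.3 and 27.5 CPM, and their interval did not overlap that of the precursors in the control library. From the third place to the fifteenth, each class overlapped the next in the control library. The cycling class itself was uneven. Cluster 31, 50 cycling nuclei in each library whose oligodendrocyte precursor markers summed to 11514 and 11431 CPM, had 94.5 and 71.4 CPM of Ccnd1. Cluster 20, cycling nuclei with Eomes among their leading genes, had 3.96 and 10.5 CPM from 4 and 8 UMIs.

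Dentate granule-like nuclei had 137 Ccnd1 UMIs in the control library against 298 UMIs in the library labelled knockout. These are levels of 2.54 and 7.86 CPM, a log2 ratio of 1.63 (1.33 to 1.93). A UMI of Ccnd1 was found in 2.88% of control granule nuclei and in 8.15% of those labelled knockout. After thinning to 2000 UMIs, with 1 and 6 nuclei under that depth left out, these shares were 0.48% and 1.64%. The 3 nuclei with most UMIs held 8 of the control UMIs and 7 of the others, so the difference was spread over many nuclei. It was the same in direction in cluster 1 (3.45 against 8.01 CPM) and cluster 3 (2.31 against 4.37 CPM, the latter from 7 UMIs). In each of these clusters the fold was smaller than in the whole class. Control nuclei lay mostly in cluster 3 and those labelled knockout mostly in cluster 1. The part of this in the class ratio was not tested. Because the level stayed under 10 CPM, this pair was not counted by the size rule. With a minimum of 20 UMIs and none on CPM it was, as were 5.87% of genes in that class. Granule and immature granule markers also differed between the libraries in these nuclei, as given below for Cdk6. Their part in the Ccnd1 difference was not tested.

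Smaller Ccnd1 differences in the same direction were seen in other classes, each from low counts. Committed oligodendrocyte precursor-like nuclei, the step between precursors and myelinating cells, had 22 and 43 UMIs, or 4.41 and 9.67 CPM, a log2 ratio of 1.12 (0.36 to 1.95). Within them cluster 16, led by Bmp4, Enpp6 and Gpr17, had 10 and 40 UMIs, while the more mature cluster 22 had 12 and 3. The surplus thus lay in the earlier of the 2 clusters. Radial glia-like nuclei had 18 and 25 UMIs (10.8 and 22.3 CPM), and CA3-like nuclei had 93 and 122 (3.13 and 4.98 CPM). The opposite direction was found in CA1-like nuclei, with 511 and 323 UMIs (9.51 and 7.67 CPM), a log2 ratio of -0.31 (-0.52 to -0.11). That direction held in male nuclei, at -0.65 (-0.95 to -0.37), and turned in female nuclei, at 0.67 (0.26 to 1.08).

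Ccnd2 encodes cyclin D2. Its level in cycling progenitor-like nuclei was 159 CPM in the control library (220 UMIs) and 172 CPM in the library labelled knockout (181 UMIs). In cycling cluster 20, with Eomes among its leading genes, it reached 202 and 230 CPM. CA3-like pyramidal nuclei, which are postmitotic, stood at 151 and 162 CPM from 4481 and 3965 UMIs. The intervals of these classes overlapped in the control library, so dividing progenitors and CA3 neurons could not be ranked for Ccnd2. Radial glia-like nuclei followed at 83.7 and 67.7 CPM and dentate granule-like nuclei at 73.8 and 91.5 CPM. At the other end, committed oligodendrocyte precursor-like nuclei had 3.21 and 5.85 CPM and oligodendrocyte-like nuclei 3.10 and 4.35 CPM. Ccnd1 and Ccnd2 were ordered differently over the classes: the class with most Ccnd1, the oligodendrocyte precursors, had 20.7 and 28.3 CPM of Ccnd2.

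Within the granule lineage the Ccnd2 level was lower in immature dentate granule-like nuclei than in cycling or granule ones. Immature cluster 0, with Calb2 and Igfbpl1 among its leading genes, had 25.3 and 27.5 CPM, and immature cluster 11 had 68.9 and 88.5 CPM. Between the libraries Ccnd2 differed little. The log2 ratio was 0.31 (0.24 to 0.38) in dentate granule-like nuclei, 0.23 (0.07 to 0.39) in immature ones, 0.24 (0.13 to 0.35) in CA1-like and 0.10 (0.04 to 0.16) in CA3-like nuclei. The CA3-like ratio turned to -0.10 (-0.19 to -0.01) in male nuclei alone and kept its direction in female nuclei. In dentate granule-like cluster 1 the ratio was 0.08 (-0.02 to 0.19). Inhibitory-like nuclei had 32.2 and 29.9 CPM, and among their clusters cluster 24, led by Lamp5 and Hapln1, had 57 control UMIs and 20 in the library labelled knockout (20.1 and 7.61 CPM), a log2 ratio of -1.38 (-2.22 to -0.65). Cluster 24 was singled out after its values were seen.

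**Figure D1:**
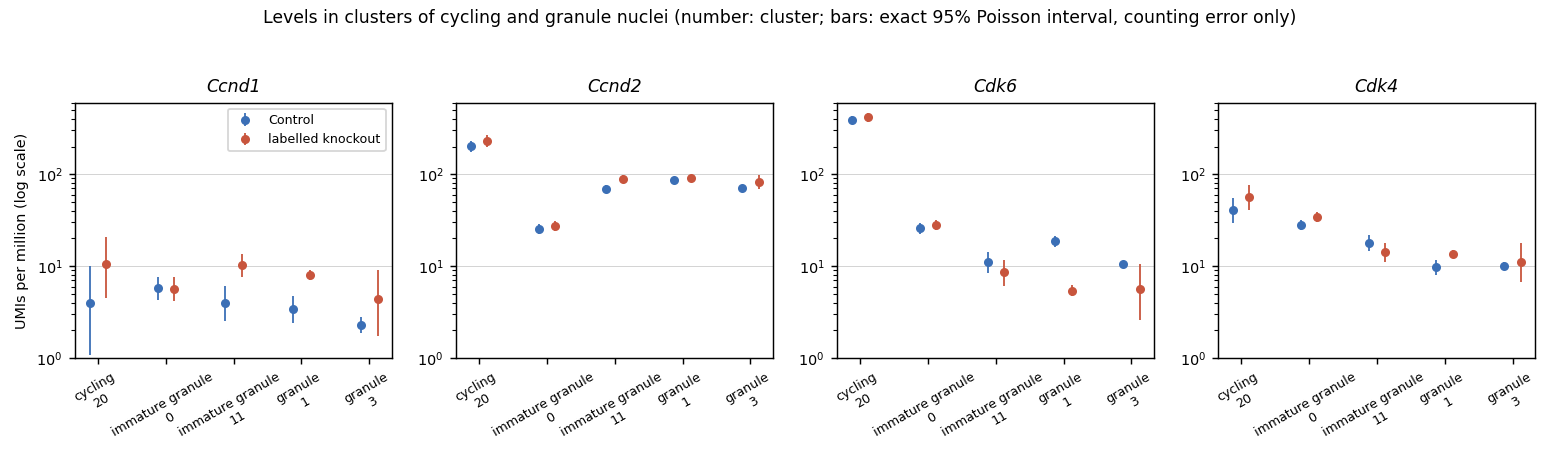
Level of Ccnd1, Ccnd2, Cdk6 and Cdk4 in CPM (log axis) in the cycling cluster 20, the immature granule clusters 0 and 11 and the granule clusters 1 and 3, control in blue and labelled knockout in red, with exact Poisson intervals for counting error. Cdk6 was near 400 in the cycling cluster (391 and 414), and in granule cluster 1 the libraries separated to 18.7 and 5.42.

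Ccnd3 encodes cyclin D3, which is prominent in blood-derived cells. Microglia-like nuclei had by far the most, 1243 CPM in the control library (4163 UMIs) and 1419 CPM in the library labelled knockout (3778 UMIs), and 86.6% and 84.1% of these nuclei held a UMI. The order of the next classes was clear in the control library: fibroblast-like nuclei (334 and 246 CPM), astrocyte-like nuclei (199 and 227 CPM), radial glia-like nuclei (95.8 and 92.7 CPM) and oligodendrocyte-like nuclei (45.1 and 35.5 CPM). None of those 5 classes overlapped its neighbour. The fibroblast-like class, cluster 30, had Mrc1 and F13a1, genes known from macrophages, among its leading genes. In it the nuclei with 3 or more UMIs of the 7 microglia markers, 23 of 59 control nuclei and 25 of 101 of the others, held 57 of the 80 and 56 of the 107 Ccnd3 UMIs. Without them the log2 ratio of the class went from -0.44 to 0.17 (-0.55 to 0.96). Neurons had little: CA1-like nuclei 5.68 and 4.54 CPM, dentate granule-like nuclei 2.67 and 1.61 CPM. Cycling progenitor-like nuclei had 14.5 and 13.3 CPM, so Ccnd3 was low in a class with high Ccnd2.

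Committed oligodendrocyte precursor-like nuclei had 35 Ccnd3 UMIs in the control library and 75 in the library labelled knockout, 7.01 and 16.9 CPM, a log2 ratio of 1.26 (0.67 to 1.89). The 3 nuclei with most Ccnd3 held 9 of the 35 and 19 of the 75 UMIs. The difference lay in the more mature cluster 22, with 24 and 60 UMIs (8.53 and 25.3 CPM), and not in cluster 16, with 11 and 15. Markers of microglia moved with it: in cluster 22 the 7 microglia markers summed to 76.1 CPM in the control library and 135 CPM in the other, and in the whole class to 85.6 and 115 CPM, with 6 of 7 higher and 0 of 7 at 0 in either library. Nuclei with 3 or more UMIs of those markers were 4.12% and 4.49% of the class, and they held 8 of the 35 and 34 of the 75 Ccnd3 UMIs. Without them the counts were 27 and 41 UMIs and the log2 ratio 0.76 (0.04 to 1.53). With called doublets kept it was 0.43 (0.03 to 0.83), from 103 and 114 UMIs. In male nuclei alone it was 0.67 (-0.12 to 1.48). None of these 3 values passes the 2-fold limit. In female nuclei alone it was 2.14 (1.02 to 3.64), from 7 and 34 UMIs.

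Oligodendrocyte precursor-like nuclei showed a smaller Ccnd3 difference in the same direction, 34 against 61 UMIs (6.11 and 11.3 CPM), a log2 ratio of 0.88 (0.26 to 1.54). Nuclei with microglia markers held 0 of the 34 and 11 of the 61, and without them the ratio was 0.58 (-0.07 to 1.26). Mature oligodendrocyte-like nuclei went the other way at -0.34 (-0.58 to -0.11). In neurons Ccnd3 was lower in the library labelled knockout in CA3-like nuclei (223 and 102 UMIs), with a log2 ratio of -0.85 (-1.2 to -0.51), and in dentate granule-like nuclei (144 and 61 UMIs), with -0.72 (-1.19 to -0.29). The microglia markers in dentate granule-like nuclei summed to 82.0 and 68.4 CPM, with 0 of 7 higher in the library labelled knockout. Without nuclei carrying 3 or more UMIs of those markers, 129 and 59 Ccnd3 UMIs remained there and the log2 ratio was -0.69 (-1.17 to -0.24). With called doublets kept the granule ratio turned to 0.25 (-0.04 to 0.53).

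**Figure D2:**
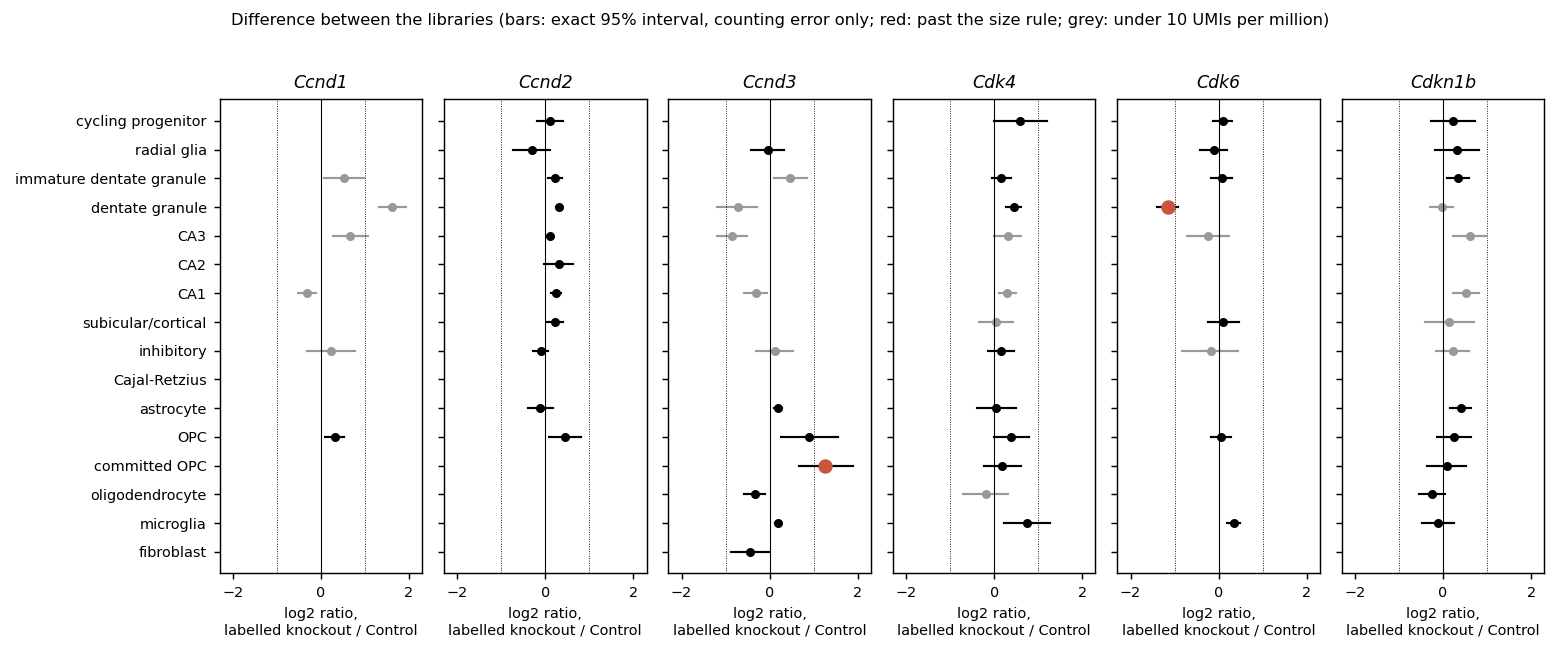
Log2 ratio of the library labelled knockout over control for each class in which the gene had at least 50 UMIs in either library, with exact conditional binomial intervals for counting error. Red marks Cdk6 in dentate granule-like and Ccnd3 in committed oligodendrocyte precursor-like nuclei, the 2 pairs past the 2-fold rule, dotted lines mark 2-fold, and grey marks pairs under the minimum level, among them Ccnd1 in dentate granule-like nuclei at 1.63.

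Cdk4 encodes the kinase partner that most dividing cells use with D cyclins, and its level was the most even across classes of the kinases and cyclins. In the control library it ran from 6.06 CPM in CA3-like nuclei to 45.9 CPM in fibroblast-like nuclei, the latter from 11 UMIs, and every class overlapped its neighbour in the order. Cycling progenitor-like nuclei had 32.6 and 49.3 CPM (45 and 52 UMIs), and the immature dentate granule-like class stood at 24.2 and 27.1 CPM. Dentate granule-like nuclei had 10.0 and 13.6 CPM (541 and 516 UMIs), a log2 ratio of 0.44 (0.26 to 0.62). Thus Cdk4 was slightly higher in the same granule nuclei in which Cdk6 was lower. Across the 16 classes the Cdk4 ratio was above 0 in 13. The median of all genes was above 0 in 14 of the 16 and at most 0.11. Of all pairs with 20 UMIs or more, 56.3% had a ratio above 0. Whether other genes are above 0 in as many classes was not tested. In microglia-like nuclei it reached 0.75 (0.23 to 1.28) from 56 and 75 UMIs.

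Cdk6 encodes the second D-cyclin kinase, which is known for its part in progenitors and blood cells. Its level was highest in dividing nuclei and in some of the glial classes: cycling progenitor-like nuclei had 296 and 316 CPM (409 and 333 UMIs), microglia-like nuclei 238 and 301 CPM, radial glia-like nuclei 143 and 133 CPM, and oligodendrocyte precursor-like nuclei 55.7 and 57.6 CPM. The first 3 did not overlap their neighbours in the control library. Other glial classes were low, with 3.55 and 2.19 CPM in astrocyte-like, 2.81 and 5.40 CPM in committed oligodendrocyte precursor-like and 1.79 and 1.74 CPM in oligodendrocyte-like nuclei, below the dentate granule-like nuclei of the control library. Within the cycling class cluster 20, with Eomes among its leading genes, had 391 and 414 CPM. Cluster 31, with its oligodendrocyte precursor markers, had 37.8 and 61.2 CPM from 14 and 18 UMIs. Pyramidal neurons were near the lower end, with 3.03 and 2.57 CPM in CA3-like and 0.670 and 0.760 CPM in CA1-like nuclei.

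Along the granule lineage Cdk6 was lower in immature dentate granule-like nuclei, at 19.999 and 21.0 CPM (292 and 278 UMIs), and the libraries did not separate there, with a log2 ratio of 0.07 (-0.17 to 0.31). They did in dentate granule-like nuclei: 655 UMIs or 12.1 CPM in the control library against 206 UMIs or 5.43 CPM in the library labelled knockout, which is a log2 ratio of -1.16 (-1.39 to -0.93). A UMI was found in 11.5% of control granule nuclei and in 4.80% of those labelled knockout, at median depths of 11786 and 10875 UMIs. After thinning to 2000 UMIs the shares were 2.42% and 0.867%. CA1-like nuclei, deeper at 18922.5 and 16715 UMIs, held a Cdk6 UMI in 1.15% and 1.24%, so the granule shares lay above that of a neuron class with little Cdk6 in both libraries. The 3 nuclei with most Cdk6 held 16 of the 655 and 12 of the 206 UMIs.

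The Cdk6 difference in granule nuclei was clear of counting error in cluster 1 and had the same direction in cluster 3. Cluster 1 had 206 control UMIs from 993 nuclei and 197 from 3216 nuclei of the library labelled knockout, or 18.7 and 5.42 CPM, a log2 ratio of -1.78 (-2.07 to -1.5). Cluster 3 had 10.5 CPM in the control library and 5.62 CPM, from 9 UMIs, in the other, with an interval that includes no change (-2.04 to 0.04). It held 3387 control nuclei and 135 of the others. The ratio in cluster 1 thus compares a minority of the control granule nuclei with most of those labelled knockout. Marker sums of the class moved as well. The 8 dentate granule markers summed to 6767 and 5001 CPM with 1 of 8 higher in the library labelled knockout, and the 8 immature granule markers to 663 and 766 CPM with 7 of 8 higher, 0 of either list being at 0. Markers of microglia, a class rich in Cdk6, were lower in all 7 genes. Leaving out nuclei with 3 or more microglia marker UMIs gave a log2 ratio of -1.2 (-1.44 to -0.97). The part of the granule markers and that of microglial RNA in the Cdk6 difference were not tested.

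The female nuclei of each library come from 1 mouse and the male nuclei from 2, so they give a view within the pools, though no replicates. In dentate granule-like nuclei Cdk6 had 11.5 and 4.12 CPM in females (188 and 50 UMIs), a log2 ratio of -1.47 (-1.96 to -1.02), and 13.2 and 6.24 CPM in males (338 and 118 UMIs), a log2 ratio of -1.08 (-1.40 to -0.78). Ccnd1 in the same nuclei was higher in both, by a log2 ratio of 1.72 (1.18 to 2.3) in females and 1.64 (1.2 to 2.11) in males. Ccnd2 separated in females only by its interval, with 0.62 (0.50 to 0.74) against 0.07 (-0.03 to 0.16) in males, and that difference between the sexes was not tested. Of 33 pairs with at least 50 UMIs in both sexes, the ratio was higher in females in 28, including 8 of 8 for Ccnd2. Over all genes with the same minimum it was higher in females in 62.0% of pairs, and in single classes in up to 73.0%. These 33 pairs share the same 6 mice and are not independent.

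**Figure D3:**
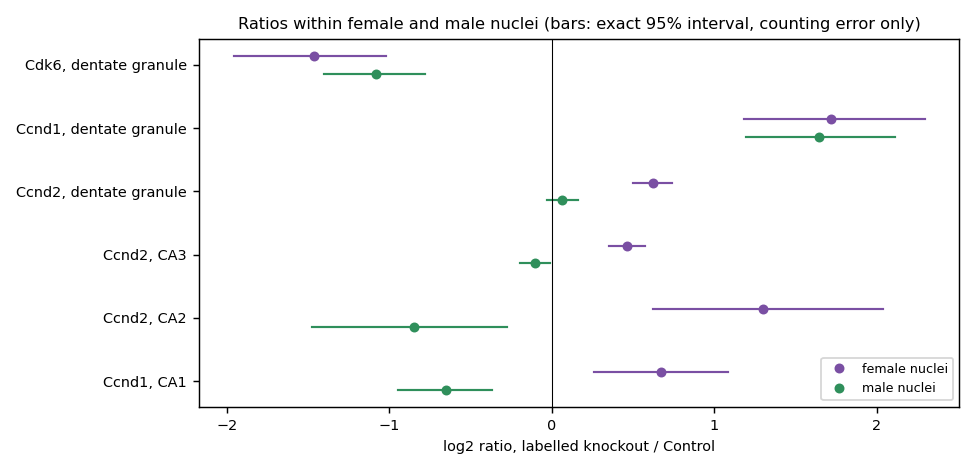
Log2 ratio of the library labelled knockout over control within female nuclei (purple, 1 mouse per library) and male nuclei (green, 2 mice per library), with exact intervals for counting error. Cdk6 and Ccnd1 in dentate granule-like nuclei keep their side of 0 in both sexes, and Ccnd2 in CA2-like and CA3-like and Ccnd1 in CA1-like nuclei lie on opposite sides.

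Among the inhibitors, Cdkn1b, which encodes p27 and is known to rise as cells leave the cycle, was the only member with enough UMIs to compare. It was highest in cycling progenitor-like nuclei, at 54.3 and 63.5 CPM (75 and 67 UMIs), followed by fibroblast-like, microglia-like and radial glia-like nuclei (45.8 and 57.0 CPM in the last), and in the control library each of these 4 classes overlapped the others next to it in the order. Radial glia-like nuclei, the fourth, did not overlap astrocyte-like nuclei, the fifth. In the control library the pyramidal classes CA2-like, CA1-like and CA3-like were the lowest, at 3.43, 3.54 and 3.67 CPM. CA3-like nuclei overlapped the next class there, subicular or cortical excitatory-like nuclei at 4.52 CPM. In the library labelled knockout CA1-like nuclei had 5.06 CPM and CA3-like nuclei 5.59 CPM, and the subicular or cortical excitatory-like class lay below both. Immature dentate granule-like nuclei had 17.7 and 22.5 CPM against 5.58 and 5.49 CPM in dentate granule-like nuclei. The median log2 ratio of all genes was above 0 in 14 of 16 classes and at most 0.11. Between the libraries 13 of 16 Cdkn1b ratios were above 0. The interval lay above no change in 5 classes, among them astrocyte-like nuclei at 0.40 (0.15 to 0.64), from 271 and 281 UMIs, and Cajal-Retzius-like nuclei at 1.63 (0.68 to 2.79), from 11 and 38 UMIs, which is under the minimum.

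Cdkn1a, which encodes p21, a target of p53, had at most 20 UMIs in any of the 16 classes of either library and 102 and 91 UMIs over all 16. It reached the minimum in 0 classes, and no difference was detectable at this depth. Cdkn1c, which encodes p57, is imprinted and had 108 and 158 UMIs over all classes. Its highest control level was in Cajal-Retzius-like nuclei, 9.84 CPM from 10 UMIs against 22.7 CPM from 25 UMIs in the library labelled knockout, which is a log2 ratio of 1.17 (0.10 to 2.43). In that class Cdkn1b and Cdkn1c both had more UMIs in the library labelled knockout, and neither reached 50. In astrocyte-like nuclei Cdkn1c had 0 UMIs in 1968 and 1732 nuclei, where 3 UMIs would be a level of 0.323 and 0.410 CPM and the plotted 95% intervals reach 0.397 and 0.504 CPM.

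Genes around these members were read from 9 lists with 90 genes, of which 89 were in the files. Of 465 pairs of a list gene and a class that reached the minimum, 1 differed by 2-fold, against 1.6% of the pairs of all genes. This was Foxo1, a forkhead factor known to induce Cdkn1b. It was higher in CA1-like nuclei of the library labelled knockout, 342 and 677 UMIs or 6.36 and 16.1 CPM, a log2 ratio of 1.34 (1.15 to 1.53), where 2.71% of genes were higher by 2-fold. Among pairs that reached the minimum, none of the other lists had one that differed by 2-fold: 34 were measured for the pocket proteins (Rb1 and its relatives), 84 for E2F and DP factors, 6 for cyclin E, cyclin A and CDK2, 39 for replication and S phase, 18 for mitosis, 120 for the turnover of G1 regulators and 95 for atypical cyclins and partners of CDK5. The INK4 inhibitors, which bind CDK4 and CDK6, reached it in 0 pairs. In the list of upstream transcription factors and p53, which holds Foxo1, 69 pairs reached it and 1 differed by 2-fold.

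In cycling progenitor-like nuclei the mitosis and replication genes were nearly level between the libraries. Top2a, Mki67 and other mitosis genes were among the markers that named this class. Their levels there are therefore not independent of its naming. The mitosis genes had 18 of 18 members with 20 UMIs or more and a median log2 ratio of 0.08, against 0.03 over all genes, with Top2a at 753 and 791 CPM and Mki67 at 220 and 232 CPM. The replication genes had a median of 0.12 over 18 members. The E2F and DP factors had a median of 0.22, with 7 of 10 higher. In dentate granule-like nuclei the pocket protein gene Rb1, whose product is the substrate of CDK4 and CDK6, had 207 and 181 CPM, a log2 ratio of -0.19 (-0.24 to -0.15), and E2f3 had 53.1 and 39.7 CPM, a log2 ratio of -0.42 (-0.51 to -0.33). Both were smaller than the Cdk6 difference in the same nuclei and were picked after their values were seen. Of the E2F and DP factors with 20 UMIs or more there, 4 were higher and 4 lower, and of the pocket proteins 1 was higher and 2 lower. The medians of 8 lists ran from -0.09 to 0.10, against 0.02 over all genes, and the INK4 list had only 1 gene with 20 UMIs.

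The genes whose level across the 16 control classes was most like that of each member were found by Pearson's r of log2(CPM + 1) among 12675 genes. The 16 classes share 1 library and differ in depth, so r is a description. For Ccnd3 these were Fmo5 (r = 0.97), Zc3h12a (0.95) and Pnpla7 (0.95), for Cdk4 Hdac2 (0.97), Dis3 (0.95) and Tpm4 (0.95), and for Cdkn1b Scamp3, Nras and Selenok (each 0.97). For Cdk6 they were Exosc8 (0.91), Sfmbt1 (0.91) and Gabpb1 (0.90). Ccnd1 and Ccnd2 had weaker matches, Carnmt1 (0.84), Usp24 (0.84) and Spg7 (0.83) for the former and Gm48623 (0.85), 3110039M20Rik (0.83) and Cplx2 (0.83) for the latter. Among the members themselves r was 0.78 for Ccnd3 with Cdkn1b, 0.75 for Cdk4 with Cdkn1b and 0.66 for Cdk4 with Cdk6, while Ccnd1 with Ccnd2 had 0.10 and Ccnd2 with Ccnd3 had -0.24.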

How the data were processed

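The authors deposited raw UMI counts per gene and nucleus for the 2 libraries, made with Cell Ranger 8.0.1 on mm39 per the submitters' processing notes, and no normalization was applied to them. The 8 genes and all lists were chosen with earlier results of these data known. Nuclei with at least 500 genes and at most 5% mitochondrial UMIs were kept (25060 and 23043), and doublets called per library by Scrublet in scanpy 1.11.5 at an expected rate of 0.1 were left out (3195 and 2512). Counts were scaled and log transformed, 3000 variable genes and 30 components were taken, and a shared-neighbour graph over 15 neighbours was clustered by the Leiden method at resolution 1 (leidenalg 0.10.2, igraph 0.11.9, Python 3.11.15, numpy 2.4.6, scipy 1.17.1, pandas 2.3.3, scikit-learn 1.9.0). Left out of the clustering were the 8 genes, the 90 list genes, mitochondrial and Y-linked genes, Tsix and Xist. Of the 8, Ccnd3, Cdk6 and Cdkn1a would have been variable genes.

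The 39 clusters were named from 21 marker sets by the highest mean log2 fold. A cluster stayed unnamed with fewer than 3 markers raised by a log2 fold of 0.5 in at least 10% of nuclei, a mean fold under 0.5, or more markers of another set among its 10 leading genes. With no marker of its closest set among those 10 genes, a cluster also stayed unnamed for its depth. This was when 3 times its depth stayed under the library median, or its depth was above 3 times that median. Clusters that held nuclei of 1 library only stayed unnamed as well. The rule on depth above 3 times the median, the rule on 1 library and the minimum on the mean fold were set after the clusters were seen. The rules left 9 clusters unnamed, with 7.39% of control nuclei and 8.38% of the others. No cluster took its name from the intermediate progenitor set. Unnamed clusters 21 and 29 were closest to the mossy cell set, each with 0 of its markers among the 10 leading genes. Endothelial, mural and ependymal clusters had under 50 nuclei.

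UMIs were summed per class and library. CPM is UMIs per 1000000 UMIs of the class, log2 ratios add 0.5 UMI to each sum, and intervals are exact Poisson (levels), exact conditional binomial (ratios) and Clopper-Pearson (shares) at 95%. The sum and ratio steps were tested on simulated data. Female nuclei had at least 2 Xist UMIs and no Y-linked UMI, male nuclei the reverse. TMM factors came from edgeR 4.0.16 in R 4.3.3. Named were the 8 genes, Cic, list genes past the size rule (up to 6 per list and class) and the 3 genes most like each member. Rb1, E2f3, Top2a and Mki67 were named outside this rule, after their values were seen. Annotated genes on the opposite strand overlap some of the 8 genes, and how reads from such overlaps were assigned was not checked. The annotation was GENCODE M21 for GRCm38, which held 94.85% of the 33696 identifiers. In it LTO1 overlaps Ccnd1, Gm43126 and 9330179D12Rik overlap Ccnd2, Bysl overlaps Ccnd3 and Tspan31 overlaps Cdk4. Gm17590 and Gm42435 overlap Cdk6, and Gm44732 overlaps Cdkn1c.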

Additional observations from a re-analysis of the deposited data

Results flagged for a closer look

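The female and male nuclei moved in opposite directions for 3 pairs, by intervals on opposite sides of no change, and the differences were not tested. Ccnd1 in CA1-like nuclei had 5.96 and 9.50 CPM in females (91 and 115 UMIs) and 11.1 and 7.07 CPM in males (281 and 156 UMIs), a difference between the sexes in log2 ratio of 1.32. Ccnd2 in CA2-like nuclei had 26.7 and 66.3 CPM in females, from 40 and 37 nuclei, and 56.7 and 31.2 CPM in males, from 66 and 56 nuclei, a difference of 2.15. Ccnd2 in CA3-like nuclei had 137 and 189 CPM in females and 165 and 154 CPM in males, a difference of 0.57.

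For 3 genes the libraries differed in opposite directions in different classes, again with no test of the difference. Ccnd1 was higher in dentate granule-like and lower in CA1-like nuclei of the library labelled knockout, 1.93 apart in log2 ratio. Ccnd3 was higher in committed oligodendrocyte precursor-like and lower in CA3-like nuclei, 2.10 apart. Cdk6 was higher in microglia-like nuclei, at a log2 ratio of 0.34 (0.20 to 0.48), and lower in dentate granule-like nuclei, 1.498 apart. These classes were picked as the ends of each gene's range among classes with at least 50 UMIs in either library and an interval that excluded no change.

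A pair of signals lay outside the compared classes. In endothelial-like cluster 32, with 44 control nuclei and 41 of the library labelled knockout, there was 1 UMI of Cdkn1a against 27, with a log2 ratio of 4.82 (2.78 to 10.7). Of the 27, 17 lay in 1 nucleus. In unnamed cluster 15, with 374 and 435 nuclei, Cdk6 stood at 0.951 and 5.11 CPM from 6 and 31 UMIs, a log2 ratio of 2.33 (1.14 to 3.98).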

How the results depend on the processing

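No paired analysis was possible because each group is 1 library. The count of 2 pairs past the 2-fold rule was 1, Cdk6 in dentate granule-like nuclei, with called doublets kept, with nuclei thinned to 2000 UMIs, in male nuclei only and without nuclei carrying microglia markers, the last an alternative added after the data were seen. It was 5 of 42 pairs at 1.5-fold, where 5.63% of the pairs of all genes differed. With a minimum of 20 UMIs and none on CPM it was 7, where 3.48% of the pairs of all genes differed by 2-fold. In female nuclei it was again 2, with Ccnd2 in CA2-like nuclei in place of Ccnd3 in committed oligodendrocyte precursor-like nuclei. Among list genes the count of 1 pair became 16 of 465 at 1.5-fold and 19 at 20 UMIs, against the same shares of all genes. How many member and list pairs reached 20 UMIs is not given here. Cdk6 in dentate granule-like nuclei had a log2 ratio of -1.45 after thinning and -1.47 in female nuclei, and Ccnd3 in committed oligodendrocyte precursor-like nuclei had 0.43 with doublets kept, 2.14 in females and 0.67 in males. Ccnd1 in dentate granule-like nuclei stayed within its interval under all 11 alternatives. Of 693 recomputed ratios over 63 pairs, 611 lay within the interval first given. Of the 32 pairs whose interval excluded no change, 10 recomputed values changed sign: Ccnd1 in CA1-like nuclei (0.67 in females), Ccnd2 in CA3-like nuclei (-0.10 in males), Cdkn1b in CA3-like nuclei (-0.65 thinned) and 7 of Ccnd3, in CA1-like, astrocyte-like, dentate granule-like and fibroblast-like nuclei. TMM and median-of-ratios factors moved the median log2 ratio of all genes by -0.12 (each) in CA1-like, by -0.13 and -0.12 in CA2-like and by 0.12 and 0.10 in fibroblast-like nuclei, and changed the sign of none of the 32. Depth limits Cdkn1a and Cdkn1c most, which reached the minimum in 0 classes.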

Other observations

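The vascular and ventricular clusters had fewer than 50 nuclei in each library. They are given as levels only, apart from the Cdkn1a ratio of endothelial-like cluster 32 above. Cdk6 stood at 166 and 155 CPM in mural-like cluster 33 (27 and 24 UMIs) and at 21.9 and 25.3 CPM in endothelial-like cluster 32 from 4 and 3 UMIs. Ccnd3 had 164 and 261 CPM in endothelial-like nuclei, 147 and 136 CPM in mural-like nuclei and 116 and 85.8 CPM in ependymal or choroid plexus-like cluster 34. Inhibitory-like cluster 37, with Sp8, Meis2 and Dlx1 among its leading genes, had 23 and 21 nuclei. Ccnd2 stood there at 182 and 217 CPM from 9 and 10 UMIs, above the 32.2 and 29.9 CPM of its class.

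Unnamed cluster 29, closest to the mossy cell markers, had 142 and 172 CPM of Ccnd2 (272 and 425 UMIs). Unnamed cluster 21 had 316 and 613 Ccnd2 UMIs from 180 and 349 nuclei. It was also closest to those markers, but their mean log2 fold in it was -0.03 and only 2 were raised. Cluster 38 held 28 control nuclei and 0 of the other library, with all 7 microglia markers raised, and had 662 CPM of Ccnd3 from 96 UMIs.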
